A study of Mus musculus with 6 samples.

Results

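Amino acid transporters carry amino acids across the cell membrane, and 10 of their genes were described here in sorted non-myocytes of the adult mouse heart. The 10 genes, Slc7a1, Slc7a2, Slc7a5, Slc7a6, Slc7a11, Slc3a2, Slc1a4, Slc1a5, Slc38a1 and Slc38a2, were taken by symbol from a count table of 24062 genes, and all 10 had a row and passed the filter on low counts. The libraries were made from tdTomato-positive cells (Tw2+), which were set against tdTomato-negative cells (Tw2-) of the same genotype, Tw2-CreERT2;R26-tdTO, with 3 libraries in each group. All mice carried the tamoxifen-inducible Cre recombinase at Twist2 and the tdTomato reporter, were dosed with tamoxifen at 8 weeks of age, and are labelled as 9 weeks old. Hearts were digested 10 days after dosing began. Since the reporter is permanent, a Tw2+ cell made the Cre at dosing or descends from a cell that did, and a Tw2- cell may also be a Twist2-expressing cell that did not recombine. Cells were pooled before sorting, and the number of hearts behind each library was not stated.

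Cells need these carriers because most amino acids are charged or polar and do not cross the membrane alone. Slc7a1 and Slc7a2 encode cationic carriers of arginine, lysine and ornithine. Slc7a5, Slc7a6 and Slc7a11 encode light chains, the transporting subunits of exchangers that reach the cell surface only when joined by a disulfide bond to the heavy chain Slc3a2 (CD98). Slc1a4 and Slc1a5 exchange small neutral amino acids against each other, and Slc1a5 also exchanges glutamine. Slc38a1 and Slc38a2 use the sodium gradient to load cells with glutamine and alanine. The stress-induced transcription factor Atf4 is known to raise transcription of several of these genes when amino acids are short, and Nrf2 (Nfe2l2) is known to raise that of Slc7a11.

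The transcription start sites of 6 of the 10 genes were found among RefSeq promoters (GRCm38.p6), as 8 windows of 250 bases before to 50 bases after a start. They belong to Slc7a1, Slc7a6, Slc7a11, Slc3a2, Slc1a4 and Slc38a2, while Slc7a2, Slc7a5, Slc1a5 and Slc38a1 had no entry. Each window was searched on both strands for TGATGNAA, the core of the CEBP-ATF response element that Atf4 binds, and for TGACNNNGC, the core of the antioxidant response element that Nrf2 binds. The letters of these motifs did not overlap in any window. The CEBP-ATF letters were found in 2 of the 8 windows, those of Slc7a11 and Slc1a4, and in 3.97% of 32851 RefSeq windows of the same length. The antioxidant letters were found in 4 of the 8 windows, of Slc7a1, Slc7a6 and Slc38a2, and in 12.4% of all windows. The windows of Slc7a6 overlap and share their match. Below are 100 bases before to 10 bases after the start, 5′ to 3′ on the strand of the gene, shown because Slc1a4 and Slc7a1 rose in Tw2+ and Slc7a11 did not pass the test. Capitals mark the matches: CEBP-ATF letters in Slc7a11 (chr3:50443604-50443713, minus strand) and Slc1a4 (chr11:20332704-20332813, minus strand), antioxidant letters in Slc7a1 (chr5:148399895-148400004, minus strand).
Slc7a11: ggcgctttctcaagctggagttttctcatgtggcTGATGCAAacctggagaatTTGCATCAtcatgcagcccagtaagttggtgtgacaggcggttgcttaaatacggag
Slc1a4: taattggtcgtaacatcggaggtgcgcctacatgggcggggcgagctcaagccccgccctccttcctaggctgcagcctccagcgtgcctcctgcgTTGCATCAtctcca
Slc7a1: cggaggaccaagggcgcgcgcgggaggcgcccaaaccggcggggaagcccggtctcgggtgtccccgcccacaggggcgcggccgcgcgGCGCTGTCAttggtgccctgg
In Slc7a11 the matches began 66 bases before the start, on the strand of the gene, and 47 bases before it, on the opposite strand. In Slc1a4 the match began 4 bases before the start, and in Slc7a1 it began 11 bases before it, both on the opposite strand. A match of letters is not evidence of binding, and no factor was measured at these sites.

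Total counts were 11746696 to 13280522 per Tw2+ library and 11767130 to 16447098 per Tw2- library. The library of each group whose column carries no replicate number is called U (unnumbered). Levels are given as CPM, the counts of a gene scaled to library size after TMM normalization, and 3 counts in a library correspond to 0.161 to 0.302 CPM, a limit that covers counting error only. The sorted cells were checked against marker lists. The summed level of 13 fibroblast markers was 63923 to 77157 CPM in Tw2+ and 39278 to 58094 CPM in Tw2-. Of these markers 12 were fitted higher in Tw2+, but only Tcf21 passed the test, and Col3a1 was fitted lower. Gsn alone had 35563 to 45188 CPM in Tw2+ and 22362 to 32955 CPM in Tw2- (edgeR adjusted p = 0.315). The 12 macrophage and monocyte markers summed to 128 to 298 CPM in Tw2+ and 2455 to 5271 CPM in Tw2-, and 12 vascular endothelial markers to 671 to 1257 CPM in Tw2+ and 1009 to 2546 CPM in Tw2-. All 10 cardiomyocyte markers fell, with sums of 143 to 472 CPM in Tw2+ and 784 to 1462 CPM in Tw2-, as did all 6 granulocyte markers, with 2.42 to 2.85 CPM in Tw2+ and 153 to 321 CPM in Tw2-, and the 5 tested B cell markers. Cxcr2, Retnlg, Blk and Pax5 of these lists had no count in Tw2+. Twist2 was fitted higher in Tw2+ and did not pass the test (adjusted p = 0.0738 in edgeR). In such bulk samples, fewer cells of a type cannot be told apart from less RNA per cell.

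Of the 10 transporters, 5 rose and 1 fell in Tw2+ past the test, which was edgeR's quasi-likelihood test with Benjamini-Hochberg adjustment over 13180 genes at an adjusted p under 0.05. Among all tested genes 18.2% passed, 7.41% as higher and 10.8% as lower. Slc1a4, Slc7a5, Slc7a1, Slc7a6 and Slc7a2 rose, in this order of fold change, and Slc38a1 fell. Slc3a2, Slc38a2, Slc1a5 and Slc7a11 did not pass. The median log2 fold change, Tw2+ over Tw2-, was 1.04 over the 10 transporters and 0.0019 over all tested genes. The values of the groups did not overlap for 7 of the 10, against 37.4% of all tested genes. The 10 were chosen with earlier results of these data known, so these comparisons with all genes are descriptions only. Tw2+ 3 had the lowest Tw2+ value of 8 of the 10, and Tw2- 2 had the highest Tw2- value of 6 of the 10.

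**Figure D1:**
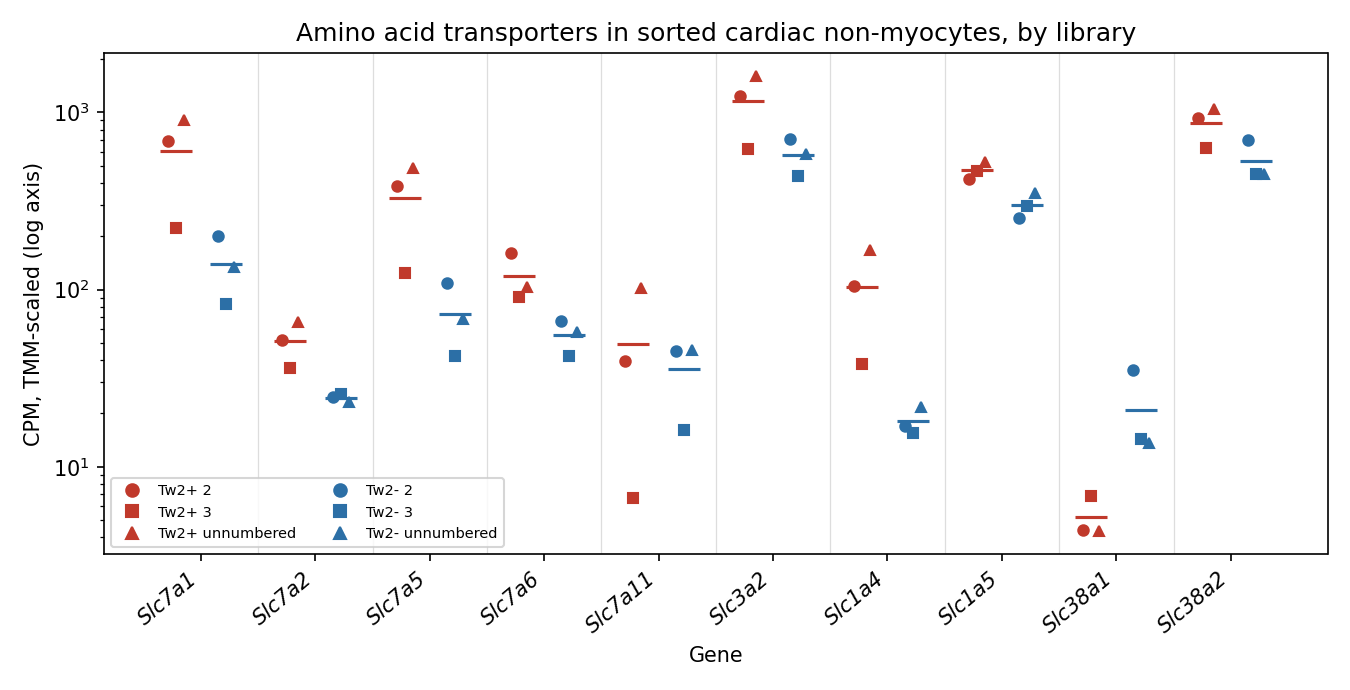
CPM of the 10 transporters on a log axis, with 1 point per library, Tw2+ in red and Tw2- in blue, and lines at the group means (n = 3 libraries each). The Tw2+ points of Slc7a1, Slc7a2, Slc7a5, Slc7a6, Slc1a4 and Slc1a5 all lie above the Tw2- points, those of Slc38a1 all lie below, and the points of Slc7a11 spread from 6.67 to 102 CPM within Tw2+.

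The cationic carriers rose in Tw2+. Slc7a1 (CAT1), which imports arginine, lysine and ornithine in most cell types, had 685, 223 and 911 CPM in Tw2+ 2, Tw2+ 3 and Tw2+ U, against 202, 82.9 and 135 CPM in Tw2- 2, Tw2- 3 and Tw2- U. The lowest Tw2+ library lay just above the highest Tw2- library, and the spread among Tw2+ libraries was wide. Its mean was 606 ± 351 CPM in Tw2+ and 140 ± 59.6 CPM in Tw2- (SD, n = 3 each), a log2 fold change of 2.12 (SE 0.51, edgeR adjusted p = 0.0244). Slc7a2 (CAT2), the relative that supplies arginine to activated macrophages, had 51.9, 36.3 and 65.9 CPM in the Tw2+ libraries in the same order, against 24.8, 25.7 and 23.2 CPM in the Tw2- libraries. The Tw2- libraries lay close together and all Tw2+ libraries lay above them, with a log2 fold change of 1.06 (SE 0.24, edgeR adjusted p = 0.0201). With the replicate number as a block on the 4 numbered libraries, Slc7a1 (1.56, edgeR adjusted p = 0.000212) and Slc7a2 (0.74, adjusted p = 0.0258) passed. Without the block, those libraries gave adjusted p of 0.133 and 0.144 in edgeR. The calls were lost in most of the fits that left out 1 library. With 1 library left out, Slc7a1 passed without Tw2+ 3 (edgeR adjusted p = 0.000970) and without Tw2- 2 (0.0423), but not without Tw2+ 2 (0.0672), Tw2+ U (0.0674), Tw2- 3 (0.106) or Tw2- U (0.0754). Slc7a2 passed without Tw2+ 3 (edgeR adjusted p = 0.00135), and not without Tw2+ 2 (0.0714), Tw2+ U (0.0639), Tw2- 2 (0.0638), Tw2- 3 (0.0871) or Tw2- U (0.0650). The log2 fold changes stayed between 1.71 and 2.52 for Slc7a1 and between 0.85 and 1.26 for Slc7a2. Slc7a1 lies at chr5:148327410-148399904 of GRCm38 on the minus strand, and Slc7a2 at chr8:40862396-40922308 on the plus strand. Of the exonic length of Slc7a2, 6.95% (635 bp) is shared with Gm26584, a non-coding gene on the opposite strand, whose reads could not be separated. None of the other 9 transporters shares exonic sequence with another gene in GENCODE M21.

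Among the light chains, Slc7a5 and Slc7a6 rose in Tw2+. Slc7a5 (LAT1), which imports leucine and other large neutral amino acids in exchange for glutamine, had 382, 124 and 486 CPM in Tw2+ 2, Tw2+ 3 and Tw2+ U, against 109, 42.2 and 67.9 CPM in Tw2- 2, Tw2- 3 and Tw2- U. All Tw2+ libraries were above all Tw2- libraries, again with Tw2+ 3 closest to Tw2-. Slc7a5 had a mean of 331 ± 186 CPM in Tw2+, against 73.0 ± 33.6 CPM in Tw2- (SD, n = 3 each), a log2 fold change of 2.18 (SE 0.51, edgeR adjusted p = 0.0220). Slc7a6 (y+LAT2), which releases arginine in exchange for glutamine and sodium, had 162, 90.3 and 104 CPM in the Tw2+ libraries and 66.2, 42.3 and 58.0 CPM in the Tw2- libraries. The groups did not overlap, and Tw2+ 2 stood above the other Tw2+ libraries (log2 fold change 1.10, SE 0.27, edgeR adjusted p = 0.0269). Slc7a5 passed without Tw2+ 3 (edgeR adjusted p = 0.000926) and without Tw2- 2 (0.0349), but not without Tw2+ 2 (0.0612), Tw2+ U (0.0595), Tw2- 3 (0.0962) or Tw2- U (0.0712). Slc7a6 passed without Tw2+ 3 (edgeR adjusted p = 0.00485), Tw2+ U (0.0422) and Tw2- 2 (0.0484), and not without Tw2+ 2 (0.106), Tw2- 3 (0.128) or Tw2- U (0.0706). The log2 fold changes stayed between 1.80 and 2.58 for Slc7a5 and between 0.81 and 1.26 for Slc7a6. With the replicate number as a block on the 4 numbered libraries, both passed (edgeR adjusted p of 8.63e-05 and 0.000774). Without the block, those libraries gave adjusted p of 0.121 and 0.0804 in edgeR. Both genes lie on chromosome 8 of GRCm38, Slc7a5 at chr8:121881150-121907694 on the minus strand and Slc7a6 at chr8:106168857-106198706 on the plus strand.

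Slc7a11 (xCT), which takes up cystine in exchange for glutamate and so feeds glutathione synthesis, differed more within a group than between groups. It had 39.4, 6.67 and 102 CPM in Tw2+ 2, Tw2+ 3 and Tw2+ U, against 44.9, 16.1 and 45.4 CPM in Tw2- 2, Tw2- 3 and Tw2- U. The highest and the lowest of the 6 values both came from Tw2+, and the libraries numbered 3 were the lowest of each group. The log2 fold change of 0.48 had an SE of 0.76 and did not pass (edgeR adjusted p = 0.677). Its sign rested on Tw2+ U, without which it was -0.61 (adjusted p = 0.611). The sign was also negative in limma-voom (-0.12), relative to fibroblast markers (-0.14), and in the 4 numbered libraries with the replicate number as a block (-0.73) or without it (-0.47). The gene lies at chr3:49892526-50443614 of GRCm38 on the minus strand.

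The heavy chain Slc3a2 had the highest mean level per length of the 10 transporters in both groups and did not pass the test. It had 1239, 619 and 1609 CPM in Tw2+ 2, Tw2+ 3 and Tw2+ U, against 707, 436 and 582 CPM in Tw2- 2, Tw2- 3 and Tw2- U. Tw2+ 3 lay below Tw2- 2, so the groups overlapped, and the log2 fold change was 1.01 (SE 0.36, edgeR adjusted p = 0.0789). It passed in DESeq2 (log2 fold change 1.00, adjusted p = 0.0334) and in edgeR without Tw2+ 3 (1.31, adjusted p = 0.00531). On simulated data with 200 changed genes among 12992, 27 of 172 DESeq2 calls were false, against 7 of 120 edgeR calls. In the real data 25.8% of tested genes passed in DESeq2, so these false shares do not carry over to them. Slc3a2 lies at chr19:8706882-8723369 of GRCm38 on the minus strand.

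The subunits were compared on a scale per length, as CPM per kilobase of exonic length (RPKM), together with Slc7a7 and Slc7a8, the other light chains of Slc3a2 that passed the filter. Slc7a5 made up 71.6%, 59.6% and 79.8% of the summed RPKM of the 5 light chains in Tw2+ 2, Tw2+ 3 and Tw2+ U, against 43.4%, 29.3% and 41.3% in Tw2- 2, Tw2- 3 and Tw2- U. Slc7a8 (LAT2), a second carrier of large and small neutral amino acids, made up 1.19%, 1.82% and 1.20% in the Tw2+ libraries and 23.5%, 30.6% and 16.6% in the Tw2- libraries. Neither share overlapped between the groups. In contrast, the RPKM of Slc3a2 was 2.44, 3.13 and 2.78 times that of the summed light chains in the Tw2+ libraries, against 2.96, 3.18 and 3.72 times in the Tw2- libraries, and these ranges overlapped. Over these ratios and 2 others described below, 5 in all, the exact two-sided permutation test over libraries gave p = 0.1 for either share (adjusted p = 0.125) and p = 0.2 for the ratio of Slc3a2 to its light chains (adjusted p = 0.2). With 3 libraries against 3 the smallest p this test can give is 0.1, so it could not pass. Macrophage and monocyte markers, with the sums given above, were also higher in Tw2-. Within Tw2- their sums ranked as the share of Slc7a8 did, and so did those of B cell markers (22.9, 25.2 and 19.5 CPM). Within Tw2+ the macrophage and monocyte sum was 214 CPM in Tw2+ 2 and 128 CPM in Tw2+ U, where the share of Slc7a8 was nearly equal. The part of these cells in the share was not tested.

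**Figure D2:**
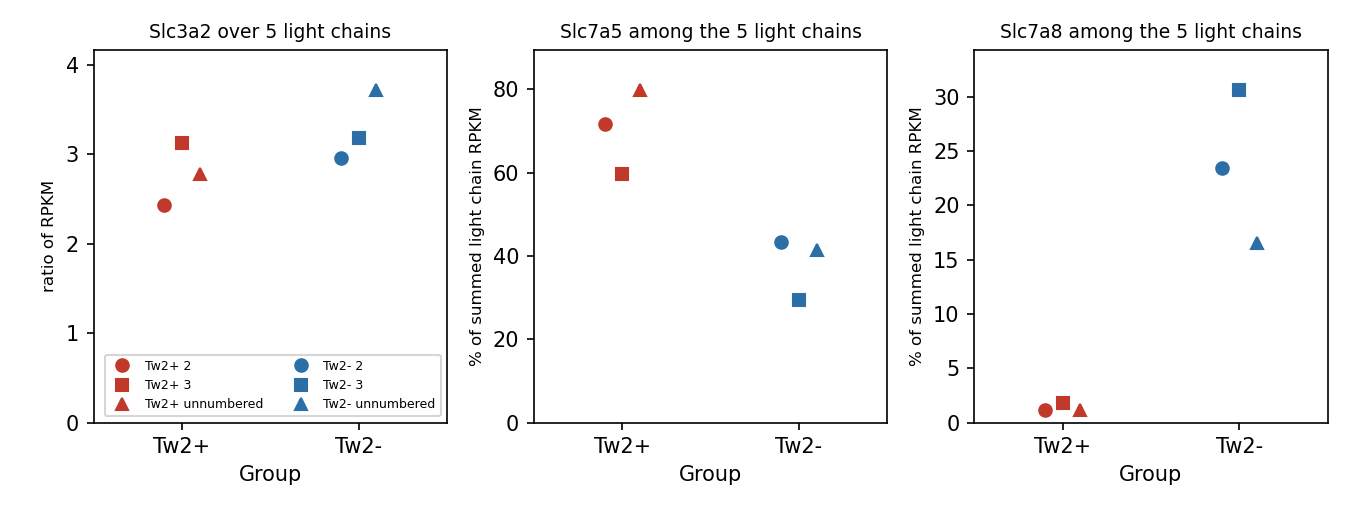
Ratio of the RPKM of Slc3a2 to that of 5 light chains (left), and the shares of Slc7a5 (middle) and Slc7a8 (right) in the summed RPKM of the 5 light chains, with 1 point per library, Tw2+ left and Tw2- right. Slc7a5 holds 59.6% to 79.8% in Tw2+ and 29.3% to 43.4% in Tw2-, Slc7a8 holds 1.19% to 1.82% in Tw2+ and 16.6% to 30.6% in Tw2-, and the ratio overlaps between the groups.

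Of the neutral amino acid exchangers, Slc1a4 rose in Tw2+ and had the largest fold change of the 10 transporters. Slc1a4 (ASCT1), a carrier of serine, alanine, threonine and cysteine, had 105, 38.1 and 168 CPM in Tw2+ 2, Tw2+ 3 and Tw2+ U, against 16.9, 15.5 and 21.8 CPM in Tw2- 2, Tw2- 3 and Tw2- U. Every Tw2+ library lay above the Tw2- libraries, which were close together. The log2 fold change was 2.52 (SE 0.47, edgeR adjusted p = 0.00815), or 5.73-fold. Leaving out any 1 library kept Slc1a4 past the test, at log2 fold changes of 1.99 to 2.92 and adjusted p of up to 0.0460. Slc1a5 (ASCT2), the main glutamine exchanger of many dividing cells, had 423, 464 and 525 CPM in the Tw2+ libraries, against 252, 297 and 349 CPM in the Tw2- libraries. The groups did not overlap, but the log2 fold change of 0.65 (SE 0.21) did not pass in edgeR (adjusted p = 0.0592). It passed in DESeq2 (log2 fold change 0.66, adjusted p = 0.0109), in edgeR without Tw2+ 3 (0.67, adjusted p = 0.0370) and with the replicate number as a block on the 4 numbered libraries (0.65, adjusted p = 0.0271). Slc1a5 and Slc38a1 were the exceptions to the low standing of Tw2+ 3, which lay between the other Tw2+ libraries for Slc1a5 and above them for Slc38a1. Per length, Slc1a5 exceeded Slc1a4 by 3.80, 11.4 and 2.95 times in the Tw2+ libraries, against 14.1, 18.0 and 15.0 times in the Tw2- libraries (exact two-sided permutation p = 0.1, adjusted p = 0.125). Slc1a4 lies at chr11:20302180-20332713 of GRCm38 on the minus strand, and Slc1a5 at chr7:16781340-16798274 on the plus strand.

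Of the sodium-coupled carriers, Slc38a1 fell in Tw2+ and Slc38a2 did not pass the test. Slc38a1 (SNAT1), a carrier of glutamine and alanine known from neurons, was the only transporter of the 10 that fell. It had 4.41, 6.83 and 4.33 CPM in Tw2+ 2, Tw2+ 3 and Tw2+ U, from 51, 84 and 43 counts, against 35.2, 14.3 and 13.7 CPM in Tw2- 2, Tw2- 3 and Tw2- U, from 583, 266 and 174 counts. The groups did not overlap, and Tw2- 2 stood far above the other Tw2- libraries. The log2 fold change was -2.02 (SE 0.42, edgeR adjusted p = 0.0140), 4.04-fold lower in Tw2+. It missed the test without Tw2+ 2 (-1.90, adjusted p = 0.0581) and passed in the other 5 such fits, at -1.46 without Tw2- 2. Several marker sums were also highest among Tw2- libraries in Tw2- 2. The 8 T and NK cell markers summed to 31.2 CPM there, against 13.7 and 5.34 CPM in Tw2- 3 and Tw2- U, the Schwann cell markers to 31.9 CPM, against 23.4 and 11.5 CPM, and the epicardial and mesothelial markers to 119 CPM, against 65.6 and 55.2 CPM. Vascular endothelial markers summed to 2546 CPM in Tw2- 2, against 2403 and 1009 CPM, and pericyte markers to 720 CPM, against 497 and 379 CPM. Other sums peaked elsewhere. Those of macrophages and monocytes (5271 CPM), granulocytes (321 CPM), B cells (25.2 CPM) and lymphatic endothelium (431 CPM) were highest in Tw2- 3. Fibroblast, smooth muscle, cardiomyocyte and erythroid sums were highest in Tw2- U. Granulocyte, fibroblast, smooth muscle and erythroid sums were lowest in Tw2- 2. Within Tw2+, Slc38a1 was highest in Tw2+ 3, where the vascular endothelial, epicardial and Schwann cell sums were also highest and the T and NK cell sum (0.894 CPM, against 2.85 CPM in Tw2+ 2) was not. The part of other cell types in the fall of Slc38a1 was not tested. Slc38a2 (SNAT2), its relative that most cells raise when amino acids are short, had 932, 627 and 1043 CPM in the Tw2+ libraries, against 696, 448 and 449 CPM in the Tw2- libraries. Tw2+ 3 lay below Tw2- 2, and the log2 fold change of 0.71 (SE 0.28) did not pass (edgeR adjusted p = 0.105), though it did without Tw2+ 3 (0.90, adjusted p = 0.0217). Per length, Slc38a2 exceeded Slc38a1 by 412, 179 and 470 times in the Tw2+ libraries and by 38.6, 61.1 and 64.1 times in the Tw2- libraries (exact two-sided permutation p = 0.1, adjusted p = 0.125). Both genes lie on the minus strand of chromosome 15 of GRCm38, Slc38a1 at chr15:96571418-96642913 and Slc38a2 at chr15:96687392-96699730.

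The order of the levels per length was alike at the top and the bottom in both groups. In Tw2+, Slc3a2 averaged 327 ± 142 RPKM, followed by Slc1a5 (113 ± 12.3 RPKM), Slc38a2 (98.1 ± 24.4 RPKM), Slc7a5 (89.2 ± 50.2 RPKM), Slc7a1 (52.6 ± 30.4 RPKM), Slc1a4 (26.4 ± 16.5 RPKM), Slc7a6 (26.0 ± 8.33 RPKM), Slc7a2 (5.62 ± 1.62 RPKM), Slc7a11 (3.55 ± 3.49 RPKM) and Slc38a1 (0.301 ± 0.0824 RPKM) (SD, n = 3). Of the 9 pairs of neighbours in this order, 3 had ranges that did not overlap. These were Slc3a2 above Slc1a5, Slc7a6 above Slc7a2, and Slc7a11 above Slc38a1. In Tw2-, Slc3a2 averaged 163 ± 38.4 RPKM, Slc1a5 71.8 ± 11.6 RPKM and Slc38a2 60.1 ± 16.2 RPKM. Slc7a5 followed with 19.7 ± 9.07 RPKM, then Slc7a6 with 12.1 ± 2.65 RPKM, Slc7a1 with 12.1 ± 5.17 RPKM and Slc1a4 with 4.61 ± 0.845 RPKM. Slc7a2, Slc7a11 and Slc38a1 came last, with 2.69 ± 0.140, 2.55 ± 1.20 and 1.22 ± 0.710 RPKM. In Tw2- the ranges of neighbours did not overlap for Slc3a2 above Slc1a5, Slc38a2 above Slc7a5, Slc7a1 above Slc1a4, and Slc1a4 above Slc7a2. Exonic lengths are the union of all annotated exons, so the level of a gene that uses a short isoform is understated.

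The number of the 10 transporters that passed varied with single libraries and with the scaling, as did the number of all genes. The number called higher in edgeR, 5 with all libraries, was 8 without Tw2+ 3, 4 without Tw2- 2, 2 without Tw2+ U, and 1, Slc1a4, without Tw2+ 2, Tw2- 3 or Tw2- U. The number called lower was 1 in 5 of these fits and 0 without Tw2+ 2. Without Tw2+ 3 all but Slc7a11 passed. Of all tested genes, 18.2% passed with all libraries and 42.1% without Tw2+ 3. In the other fits that left out 1 library, 6.71% to 12.7% of all tested genes passed. With library size as the sole scaling, the median log2 fold change of all genes moved by -0.28 and that of the 10 transporters was 0.72, with 4 called higher, and Slc7a6 then missed the test (adjusted p = 0.0579). When libraries were scaled to the 13 fibroblast markers, the median of all genes moved by -0.59, and that of the 10 transporters was 0.42. On that scale Slc1a4 rose (log2 fold change 1.93, adjusted p = 0.0184) and Slc38a1 fell (-2.69, adjusted p = 0.00969), while Slc7a5 (1.5, adjusted p = 0.0645), Slc7a1 (1.45, adjusted p = 0.0691), Slc7a6 (0.46, adjusted p = 0.277) and Slc7a2 (0.46, adjusted p = 0.251) did not pass. Tw2+ 3, the library with the lowest Tw2+ value of 8 transporters, also stood apart in marker sums. Its sums were the highest of the Tw2+ libraries for vascular endothelium (1257 CPM, against 787 and 671 CPM in Tw2+ 2 and Tw2+ U), epicardium and mesothelium (176 CPM, against 73.9 and 58.0 CPM), macrophages and monocytes (298 CPM, against 214 and 128 CPM), B cells (1.54 CPM, against 1.47 and 1.31 CPM) and Schwann cells (10.1 CPM, against 4.93 and 3.83 CPM). They were the lowest for lymphatic endothelium (266 CPM, against 534 and 672 CPM) and pericytes (539 CPM, against 597 and 671 CPM). The markers within these lists differed in direction between the groups. Of 6 lymphatic markers, 5 were fitted lower in Tw2+ and Pdpn was called higher. Of 7 pericyte markers, 6 were fitted lower and Pdgfrb was called higher, so neither sum stands for its whole list. The part of any of these cell types in the low values of Tw2+ 3 was not tested.

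**Figure D3:**
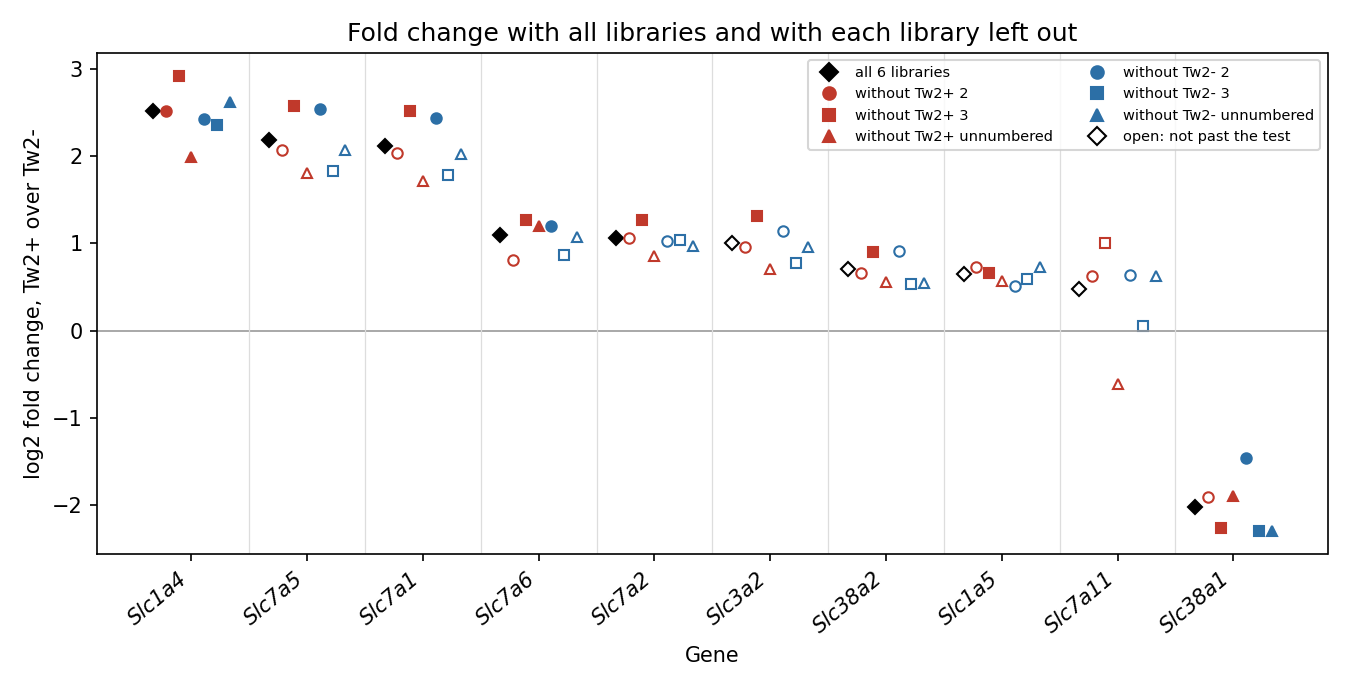
Log2 fold change, Tw2+ over Tw2-, of each transporter in edgeR with all 6 libraries (diamonds) and with each library left out, with filled symbols past an adjusted p of 0.05. Slc1a4 is filled throughout, Slc38a1 is open only without Tw2+ 2, and Slc7a11 is open throughout and falls below 0 without Tw2+ U.

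The genes nearest to each called transporter across the 6 libraries were found by the mean absolute difference in log2 CPM, after centring each gene on its own mean, among 8885 genes that averaged at least 10 CPM. Slc7a1 and Slc7a5 were each other's nearest gene, with a mean difference of 0.048, where the median over all candidates was 1.02 for Slc7a1 and 1.05 for Slc7a5. Vasn, which encodes vasorin, was the next for both, at 0.103 from Slc7a1 and 0.104 from Slc7a5. For Slc1a4 the nearest were Pdzrn3 (0.115), a ubiquitin ligase, and Psph (0.15), the last enzyme of serine synthesis. For Slc7a2 they were Zfp35 (0.051) and 2410002F23Rik (0.061), and for Slc7a6 Adamts4 (0.107), an aggrecanase, and Kazn (0.118). Slc38a1 was nearest to Rhbdf2 (0.109), a partner of the shedding protease Adam17, and to Chd7 (0.149), a chromatin remodeller. These are descriptions over 6 libraries in 2 groups, and many genes share the difference between the groups.

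The other amino acid transporters were described by the same test. Of 44 further carriers of the plasma membrane and lysosome, 23 passed the filter on low counts, of which 3 rose and 6 fell (median log2 fold change -0.13). The largest falls were of carriers of neutral amino acids. Slc43a2 (LAT4) had 4.23, 8.86 and 5.84 CPM in Tw2+ 2, Tw2+ 3 and Tw2+ U, against 67.6, 52.2 and 30.8 CPM in Tw2- 2, Tw2- 3 and Tw2- U (log2 fold change -2.99, SE 0.37, edgeR adjusted p = 0.000973). Slc7a8 had 8.56, 5.12 and 9.87 CPM in the Tw2+ libraries and 79.4, 59.5 and 36.8 CPM in the Tw2- libraries (-2.90, SE 0.35, edgeR adjusted p = 0.000867). Both were low in every Tw2+ library and lowest among Tw2- libraries in Tw2- U. That library also had the lowest Tw2- sums for macrophages and monocytes (2455 CPM), vascular endothelium, T and NK cells, and Schwann cells. The same held for B cells, lymphatic endothelium, pericytes, and epicardium and mesothelium. The granulocyte sum was instead lowest in Tw2- 2 (153 CPM, against 163 CPM in Tw2- U). Fibroblast (58094 CPM), smooth muscle (193 CPM), cardiomyocyte (1462 CPM) and erythroid (92.8 CPM) sums were highest in Tw2- U. Both genes were highest in Tw2- 2, while the macrophage and monocyte sum was highest in Tw2- 3 (5271 CPM). Within Tw2+ that sum was highest in Tw2+ 3 (298 CPM), where Slc43a2 was highest and Slc7a8 lowest. Slc7a7 (y+LAT1, log2 fold change -1.83, edgeR adjusted p = 0.00657), the taurine carrier Slc6a6 (-1.43, adjusted p = 0.0133) and the glutamate carrier Slc1a1 (-2.07, adjusted p = 0.0215) fell too. Slc43a2, Slc7a8 and Slc7a7 passed in all 6 fits that left out 1 library, and Slc6a6 in 5, missing the test without Tw2+ 2 (adjusted p = 0.0579). Slc1a1 passed in 2, and missed without Tw2+ 2 (adjusted p = 0.0762), Tw2+ U (0.0574), Tw2- 2 (0.0689) and Tw2- 3 (0.0916). The part of leukocytes in these falls was not tested.

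The 3 carriers that rose were Slc1a7, Slc6a17 and Slc6a9. Slc1a7, a glutamate carrier of the retina, had 2.59, 0.894 and 2.92 CPM in Tw2+ 2, Tw2+ 3 and Tw2+ U, against 0.241, 0.0537 and 0.0785 CPM in Tw2- 2, Tw2- 3 and Tw2- U. The Tw2- values rest on 4, 1 and 1 counts, so the fitted log2 fold change of 3.99 (edgeR adjusted p = 0.00624) depends on how such low counts are treated. Slc6a17, a carrier of synaptic vesicles, had a mean of 5.67 ± 3.17 CPM in Tw2+ libraries, against 1.08 ± 0.687 CPM in Tw2- libraries (log2 fold change 2.39, edgeR adjusted p = 0.0307). The glycine carrier Slc6a9 had a mean of 46.9 ± 8.58 CPM in Tw2+, against 26.8 ± 6.66 CPM in Tw2- (0.81, edgeR adjusted p = 0.0495). The sixth gene that fell, Slc38a6, was at -1.32 (edgeR adjusted p = 0.0473). Slc6a17 passed without Tw2+ 3 or Tw2- 2, and Slc6a9 and Slc38a6 without Tw2+ 3 or Tw2- U, while in the other 4 fits that left out 1 library the adjusted p was up to 0.111, 0.198 and 0.165. Slc6a9 also missed the test with upper-quartile scaling (adjusted p = 0.0751), library size alone (0.136), fibroblast scaling (0.26, adjusted p = 0.435) and when 50 counts were required in 3 libraries (0.0590). Slc38a6 missed it in limma-voom (0.0505), with RLE (0.0541) or upper-quartile scaling (0.0552) and under that requirement (0.0530), and Slc6a17 with fibroblast scaling (0.0735). Slc6a17, Slc6a9 and Slc38a6 were named after their values were seen. Slc38a10, abundant in both groups with 137 CPM in Tw2+ and 140 CPM in Tw2-, was at -0.03 (adjusted p = 0.926).

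Of 11 mitochondrial carriers of amino acids, 9 passed the filter, of which 1 fell and 8 did not pass the test. Slc25a13, the aspartate and glutamate exchanger citrin, had 0.951, 0.732 and 0.403 CPM in Tw2+ 2, Tw2+ 3 and Tw2+ U, against 3.80, 2.63 and 2.83 CPM in Tw2- 2, Tw2- 3 and Tw2- U (log2 fold change -2.12, edgeR adjusted p = 0.0113). Its groups did not overlap, and its Tw2+ values rest on 11, 9 and 4 counts. Sfxn1, which carries serine into mitochondria, had a mean of 49.6 CPM in Tw2+, against 37.4 CPM in Tw2- and did not pass (0.41, adjusted p = 0.189). The related Sfxn3 was at -0.09 (adjusted p = 0.717).

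**Figure D4:**
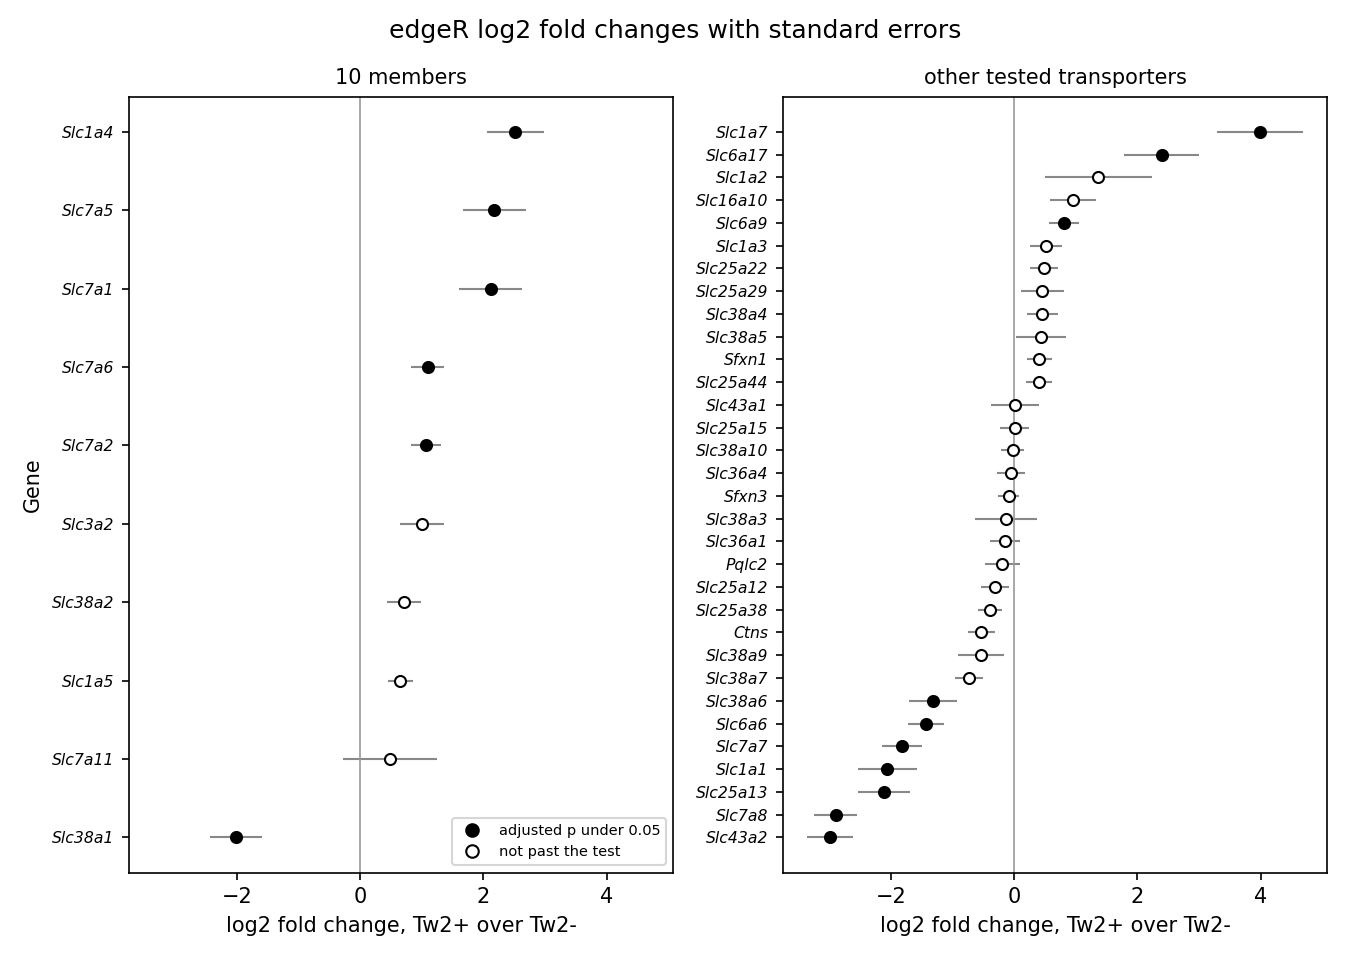
Log2 fold changes, Tw2+ over Tw2-, with standard errors from edgeR for the 10 transporters (left) and the 32 other amino acid transporters that passed the filter (right), with filled points past an adjusted p of 0.05. On the left 5 filled points lie above 0 and 1 below, and on the right 3 lie above and 7 below.

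Genes that use or sense the imported amino acids were described from lists chosen with earlier results of these data known. Of 17 tested genes that signal amino acid supply to mTORC1, 1 rose, 16 did not pass, and the median log2 fold change was -0.12. The gene that rose was Sesn2, a leucine sensor that is also induced by stress, with 178, 66.5 and 213 CPM in Tw2+ 2, Tw2+ 3 and Tw2+ U, against 49.8, 24.0 and 35.8 CPM in Tw2- 2, Tw2- 3 and Tw2- U (2.06, SE 0.43, edgeR adjusted p = 0.0144). The GTPase Rragc was at 0.25 (adjusted p = 0.512) and the folliculin gene Flcn at -0.22 (adjusted p = 0.487). Of 9 genes of the eIF2alpha kinases and the Atf4 axis, 1 rose, the pseudokinase Trib3 (1.90, SE 0.39, edgeR adjusted p = 0.0134), and the median was 0.41. Atf4 itself had 1035, 773 and 1147 CPM in the Tw2+ libraries and 643, 568 and 670 CPM in the Tw2- libraries, without overlap, but did not pass (0.65, adjusted p = 0.0763). The phosphatase subunit Ppp1r15a was at -0.32 (adjusted p = 0.398).

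Of 9 genes of glutathione synthesis and related redox control, 2 rose and 1 fell (median log2 fold change 0.29). Chac1, which degrades glutathione, rose (3.00, SE 0.70, edgeR adjusted p = 0.0222), as did the thioredoxin reductase Txnrd1 (1.48, SE 0.43, edgeR adjusted p = 0.0462), and the glutathione reductase Gsr fell (-0.69, SE 0.20, edgeR adjusted p = 0.0417). Txnrd1 had 1025, 492 and 1050 CPM in Tw2+ 2, Tw2+ 3 and Tw2+ U, against 497, 170 and 253 CPM in Tw2- 2, Tw2- 3 and Tw2- U, so that Tw2+ 3 lay just below Tw2- 2. Nfe2l2 was at -0.34 (adjusted p = 0.281). Of 5 tested genes of arginine use, Odc1, the first enzyme of polyamine synthesis from ornithine, rose. It had 1020, 697 and 1542 CPM in the Tw2+ libraries and 453, 299 and 347 CPM in the Tw2- libraries (1.57, SE 0.32, edgeR adjusted p = 0.0133), without overlap. The mitochondrial arginase Arg2 fell to 0.248 CPM in Tw2+, against 4.89 CPM in Tw2- (-4.30, SE 0.50, edgeR adjusted p = 0.000667). Its Tw2+ values rest on 3, 1 and 4 counts, so the fitted size depends on how such low counts are treated. The endothelial nitric oxide synthase Nos3 was at -1.99 (adjusted p = 0.0773) and was highest within Tw2+ in Tw2+ 3, as was the endothelial marker sum.

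Of 4 genes of glutamine use, 2 rose. Asns, which makes asparagine with glutamine as the nitrogen donor, had 56.9, 29.6 and 116 CPM in Tw2+ 2, Tw2+ 3 and Tw2+ U, against 13.4, 9.03 and 16.5 CPM in Tw2- 2, Tw2- 3 and Tw2- U (log2 fold change 2.38, SE 0.47, edgeR adjusted p = 0.0111). Glul, glutamine synthetase, had a mean of 1749 ± 436 CPM in Tw2+, against 886 ± 96.3 CPM in Tw2- (0.98, SE 0.26, edgeR adjusted p = 0.0341). Over the fits that left out 1 library, Arg2 passed in all 6 fits, Trib3, Odc1 and Asns in 5, Sesn2 in 4, Txnrd1 in 2, and Chac1, Gsr and Glul in 1. Trib3, Odc1 and Asns missed without Tw2- 3 (adjusted p of 0.0714, 0.0761 and 0.0581), and Sesn2 without Tw2- 3 (0.0702) or Tw2- U (0.0507). Txnrd1 passed without Tw2+ 3 (0.00760) or Tw2- 2 (0.0224), and the single fit in which Chac1, Gsr and Glul passed was that without Tw2+ 3 (adjusted p of 0.000434, 0.0310 and 0.00504). When scaled to fibroblast markers, Sesn2 (1.40, adjusted p = 0.0516), Odc1 (0.94, adjusted p = 0.0821), Txnrd1 (0.78, adjusted p = 0.238) and Glul (0.38, adjusted p = 0.295) did not pass. Other settings ended the calls of Chac1 (limma-voom, 2.61, adjusted p = 0.0648), Txnrd1 (RLE scaling 0.0599, library size alone 0.0796, at least 50 counts in 3 libraries 0.0575), Glul (library size alone, 0.0623) and Gsr (no filter on low counts, 0.0518).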

How the data were processed

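The deposited table holds whole-number counts per gene symbol made by the authors, 1 column per library. Per the submitters' processing notes, the tools were TopHat2 2.0.0 with DESeq2 1.6.3, and GRCm38 and mm10 were listed as builds, with no roles stated. Counting program, strand setting and annotation: not given in the sources used here. Of the 6 columns, 2 carry a group and no replicate number. The design text calls the libraries biological replicates.

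Genes passing filterByExpr (minimum count 10) were tested on the deposited counts with edgeR 4.0.16 (R 4.3.3), TMM scaling, the quasi-likelihood test and Benjamini-Hochberg adjustment at 0.05. The procedure was tested on simulated data. Alternatives used DESeq2 1.42.0, limma-voom (limma 3.58.1), other scalings and filters, and libraries left out. RPKM used GENCODE M21 exonic lengths, for 22750 symbols (94.5%).

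The members and lists were chosen with earlier results of these data known. Named were all members, up to 6 genes per pathway list past the test by smallest adjusted p, the 2 most abundant per list, and the 2 nearest genes per called member. A gene that this rule names is not reported here. Genes listed under older symbols (Gatsl3, Gatsl2, Pqlc2) were matched by them. Single-cell data were not analysed here.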

Additional observations from a re-analysis of the deposited data

How the results depend on the processing

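Of the 10 transporters, 5 were called higher and 1 lower in edgeR. The number called higher was 1 with scaling to fibroblast markers, 1 at an adjusted p under 0.01 and 1 in the 4 numbered libraries with no block, and the number called lower was 0 at an adjusted p under 0.01. With 1 library left out, the numbers were 1 to 8 higher (2 without Tw2+ U, 1 without Tw2- U) and 0 to 1 lower. Of the other transporters, 3 were called higher and 7 lower. These were 1 higher and 11 lower with fibroblast scaling, 0 and 4 with at least 50 counts in 3 libraries, 1 and 3 at an adjusted p under 0.01, and 5 and 11 with Tw2+ 3 and Tw2- U both left out. In the numbered libraries with no block, 1 was higher. With 1 library left out, 1 to 4 were higher and 4 to 8 lower. Among all genes 976 were called higher and 1419 lower. The number higher was 1575 with DESeq2 and 404 with library size alone. Numbers higher and lower were 124 and 3403 with fibroblast scaling, 90 and 701 at an adjusted p under 0.01, and 2565 and 3068 with Tw2+ 3 and Tw2- U both left out, while 115 were higher in the numbered libraries with no block. With 1 library left out, 81 to 2801 were higher (227 without Tw2+ U, 300 without Tw2- U) and 811 to 2906 lower (885 without Tw2+ U). Lower calls made up 59.2% of all calls, 80.9% with library size alone and 96.5% with fibroblast scaling. The cause was not tested. The unblocked fit of the numbered libraries was chosen after seeing the data.

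Libraries of the groups share only the numbers 2 and 3. Their deviations from the group means correlated at 0.20 and 0.56 across genes. The U libraries correlated at 0.24, but their columns carry no number, so they were not paired and no block over 3 pairs was fitted. With the replicate number as a block, 6 of the 10 transporters were called higher and 1 lower, of the other transporters 3 and 10, and of all genes 1300 and 2203.

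No result changed direction past the test under any alternative. On simulated data with 200 changed genes among 12992, edgeR found 19% of 2-fold and 94% of 4-fold changes. In the real data 2395 of 13180 tested genes passed, so these shares do not carry over to them. There Slc7a2 (2.09-fold) and Slc7a6 (2.14-fold) passed, while Slc3a2 (2.01-fold), Slc1a5 (1.57-fold) and Slc38a2 (1.63-fold) did not. Several transporters also vary widely within Tw2+, and a gene that did not pass cannot be called unchanged. The number of hearts behind a library is unknown, so p-values measure the spread between these libraries.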
